A study of Mus musculus with 8 samples.

Results

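Lysosomal membrane proteins and hydrolases were followed in spinal cord during experimental autoimmune encephalomyelitis (EAE), a mouse model of central nervous system inflammation used for multiple sclerosis. The list held 8 genes: Hexa, Psap, Grn, Lamp1, Lamp2, Lipa, Cd63 and Gpnmb. Every probe set (a set of short oligonucleotides on the array that reads 1 transcript) whose annotation gave 1 of these symbols alone was taken, whatever its values. This gave 12 probe sets of 12422 tested and 7 genes of 8251 on the array with a probe set of their own. No probe set carried the symbol Gpnmb, and that gene was not analysed here.

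All mice were female SJL/J mice, given as 8 to 12 weeks old, and whole spinal cord was profiled on Affymetrix MG U74Av2 arrays. The EAE group had received PLP peptide under the skin of the flanks in complete Freund's adjuvant, with pertussis toxin. Its mean clinical grade was 2.5. The control group consisted of healthy mice of matched age and sex. RNA of 2 animals was pooled for each array, so that 5 EAE arrays stood for 10 mice and 3 control arrays for 6 mice. The day of EAE differed between arrays, at 14, 12 to 14, 17, 14 and 15.5 for EAE arrays 1 to 5. EAE mice were also injected with mouse serum albumin 3 h before they were killed, whereas control mice received vehicle. Immunization, adjuvant, pertussis toxin, disease and albumin differed between the groups together and cannot be told apart. Batches 1, 2 and 3 each held 1 array of both groups, and batches 4 and 5 held EAE arrays alone.

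Lysosomes break down proteins, lipids and glycans that reach them through endocytosis, phagocytosis and autophagy. Soluble hydrolases and their activator proteins work in the acid lumen, while heavily glycosylated membrane proteins line and protect the limiting membrane. In demyelinating disease, macrophages and microglia take up myelin debris and degrade it in lysosomes. Inherited loss of lysosomal enzymes or activators causes storage of lipid in the nervous system, as in Tay-Sachs disease with HEXA.

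The deposited values were log2 signals, and array medians lay between 6.08 and 6.12. Central nervous tissue was borne out by neuron and oligodendrocyte markers, which do not set spinal cord apart from brain. Control means were 11.76 ± 0.05 for the synaptic protein gene Snap25 and 11.98 ± 0.04 for myelin basic protein Mbp (SD, n = 3). Of the measured markers, 16 of 18 for macrophages and microglia passed the test upwards in EAE, as did T cell markers for 4 of 10, neutrophil markers for 5 of 10 and endothelial markers for 3 of 8, whereas neuron markers were lower for 4 of 8 and oligodendrocyte markers for 3 of 8. Astrocyte markers were higher for 1 of 8 (Gfap, by 0.74) and lower for 0, and B cell and plasma cell markers gave 0 calls of 7. Among all genes, by the brightest probe set of each, 9.19% were higher and 13.5% were lower. Relative to the mean of the controls, oligodendrocyte markers averaged -0.79 to -0.34 in EAE and -0.11 to 0.15 in controls, and neuron markers -1.11 to -0.58 in EAE and -0.04 to 0.08 in controls. The 3' minus 5' signal of Gapdh, a measure of RNA integrity in which higher values mean less complete transcripts, was 1.46 in EAE 1 and 2.07 in EAE 4, and between 0.46 and 0.97 on the other arrays. That of beta-actin was 2.35 in EAE 1 and 2.79 in EAE 4, between 1.11 and 1.83 on the other EAE arrays and 2.20, 2.29 and 1.62 in controls 1 to 3, so that EAE 1 was near controls 1 and 2 by this measure.

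Grn, Lamp2, Cd63, Hexa and Psap were each higher in EAE spinal cord by 1 probe set, whereas Lamp1 and Lipa did not pass the test. The change was 6.40-fold for Grn, 2.16-fold for Lamp2, 1.77-fold for Cd63, 1.68-fold for Hexa and 1.47-fold for Psap. Of the 12 probe sets, 5 were higher, 0 were lower and 7 did not pass at an adjusted p under 0.05 in the limma fit with batch as a term. At an unadjusted p under 0.05, 6 were higher and 0 were lower. The adjusted rule gave 8.26% of all probe sets upwards and 11.4% downwards. The unadjusted rule gave 1498 upwards and 2587 downwards of all 12422. The median change was 0.40 on the log2 scale over the 12 probe sets and -0.05 over all probe sets. Every EAE array lay above every control array for 6 of the 12, and for 10.9% of all probe sets. Batches 4 and 5 held no control, so the fitted change was the mean of the differences within batches 1 to 3 and EAE 4 and EAE 5 did not enter it, whereas group means and exact tests used all 8 arrays. Without EAE 3 or without control 3, 3 probe sets passed, and those of Psap and Cd63 were lost. Calls were lost over the whole array as well, with 521 of all 12422 probe sets higher in either of these fits against 1026 in the main fit. With the mean of all probe sets of a gene in place of single probe sets, Grn changed by 1.42, Lamp2 by 0.91 and Hexa by 0.37 and still passed (limma, adjusted p = 0.0011, 0.0109 and 0.0204), while Psap did not (0.35, limma adjusted p = 0.186).

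**Figure D1:**
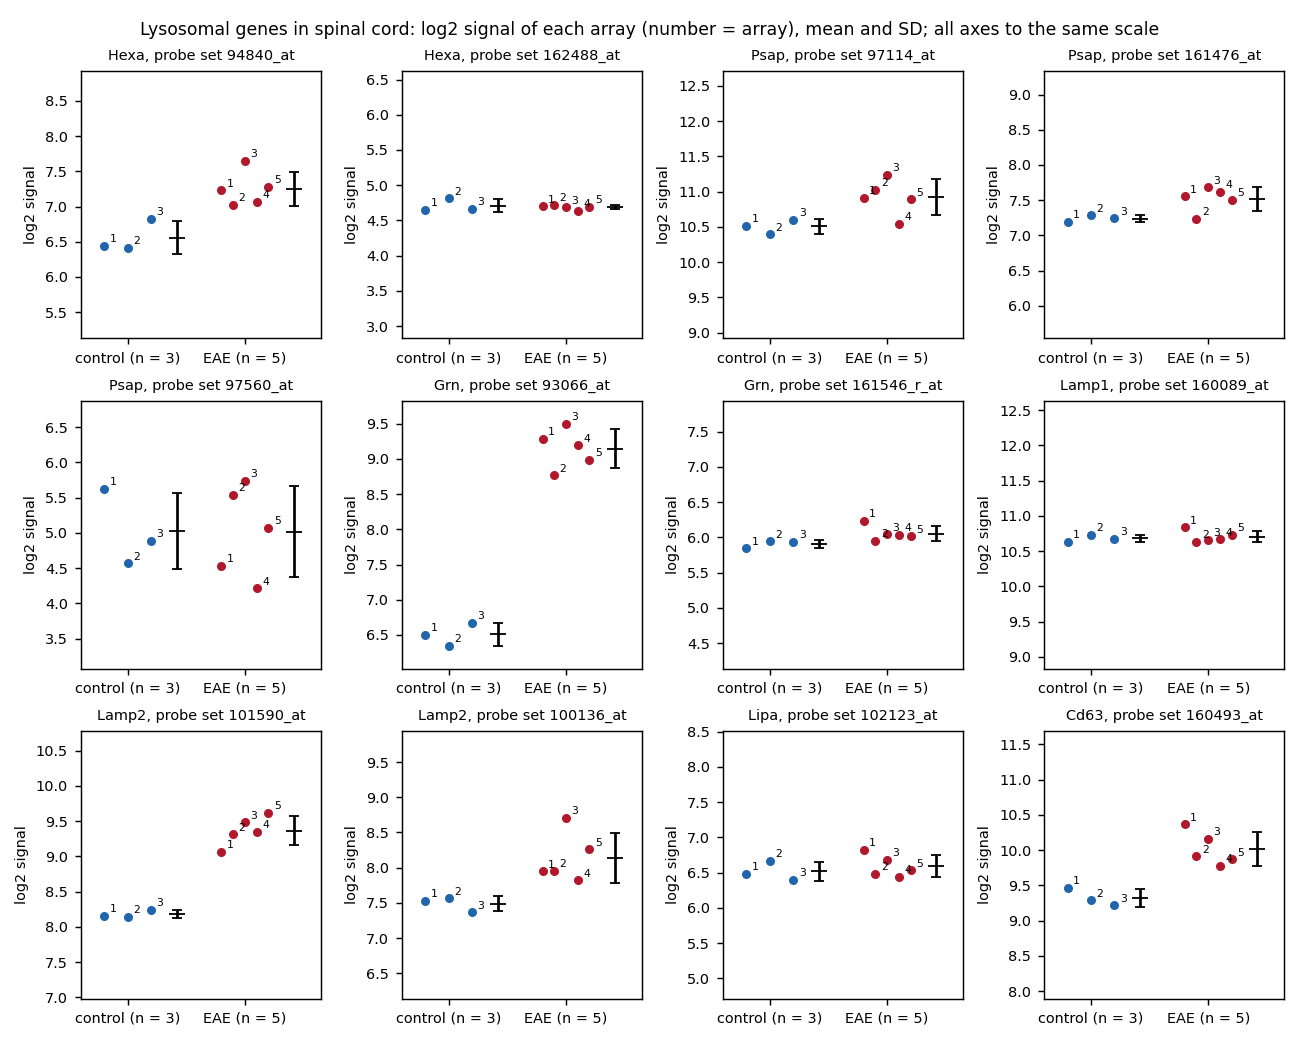
Log2 signal of each probe set of the 7 genes on 5 EAE arrays and 3 control arrays (points, numbered by array), with bars for the group mean and its SD. The bright probe sets of Grn and Lamp2 separate the groups, while Lamp1 and Lipa overlap.

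Hexa encodes the alpha subunit of β-hexosaminidase A, which removes N-acetylgalactosamine from GM2 ganglioside. The brighter Hexa probe set (94840_at) read 7.23, 7.03, 7.65, 7.07 and 7.28 in EAE 1 to 5 and 6.44, 6.41 and 6.82 in controls 1 to 3. All 5 EAE arrays were above all 3 controls, with control 3 the nearest to the EAE arrays. The means were 7.25 ± 0.25 (SD, n = 5) and 6.56 ± 0.23 (SD, n = 3), and the change was 0.74 ± 0.07 (SE) on the log2 scale, 1.68-fold with a 95% interval of 1.47 to 1.91 (limma, adjusted p = 0.0045). An exact two-sided permutation test over the 8 arrays gave p = 0.0179, the smallest that 56 regroupings allow. EAE exceeded control by 0.79, 0.62 and 0.82 within batches 1, 2 and 3. The dimmer Hexa probe set (162488_at), with group means of 4.69 ± 0.03 and 4.71 ± 0.09, lay well below the array medians and changed by -0.01 (limma, adjusted p = 0.971), so that the increase rested on 1 of the gene's probe sets.

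Lipa encodes lysosomal acid lipase, which hydrolyses cholesteryl esters and triglycerides delivered to lysosomes. Its probe set read 6.82, 6.48, 6.68, 6.44 and 6.53 in EAE 1 to 5 and 6.48, 6.67 and 6.39 in controls 1 to 3. The groups overlapped over most of their range. The change was 0.15 ± 0.12 (SE) on the log2 scale, 1.11-fold with a 95% interval of 0.891 to 1.37 (limma, adjusted p = 0.495), and its sign differed among the batches, at 0.34, -0.19 and 0.28.

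Psap encodes prosaposin, the precursor of the saposins that present sphingolipids to lysosomal hydrolases. The brightest Psap probe set (97114_at) read 10.91, 11.03, 11.24, 10.54 and 10.89 in EAE 1 to 5 and 10.52, 10.39 and 10.60 in controls 1 to 3. EAE 4 was below control 3, and the other EAE arrays were above every control. The change was 0.55 ± 0.08 (SE) on the log2 scale, 1.47-fold with a 95% interval of 1.27 to 1.69 (limma, adjusted p = 0.0123), and batches 1, 2 and 3 gave 0.39, 0.63 and 0.64. The exact permutation test, which took no account of batch, gave p = 0.0714. The call was lost without the batch block (0.42, limma adjusted p = 0.0730), and without an array of batch 2 (adjusted p = 0.0627) or of batch 3 (adjusted p = 0.0865).

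Of the remaining Psap probe sets, 161476_at changed by 0.25 (limma, adjusted p = 0.209). The third, 97560_at, read 4.54, 5.54, 5.74, 4.21 and 5.07 in EAE 1 to 5 and 5.62, 4.57 and 4.89 in controls 1 to 3. It ran against the others in batch 1, with differences of -1.09, 0.97 and 0.84 in batches 1, 2 and 3, and did not pass the test (0.24, limma adjusted p = 0.761). Its lowest values were in EAE 4 and EAE 1, the arrays of higher 3' minus 5' Gapdh signal, but control 2 at 4.57 was close to EAE 1. The part of RNA integrity in this was not tested. Without an array of batch 1 it changed by 0.91 (limma, adjusted p = 0.00633).

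Grn encodes progranulin, a secreted glycoprotein that is delivered to lysosomes and cut there into granulins, and that travels with prosaposin. The brighter Grn probe set (93066_at) read 9.28, 8.77, 9.50, 9.19 and 8.99 in EAE 1 to 5 and 6.50, 6.35 and 6.67 in controls 1 to 3. The lowest EAE array was above the highest control by more than the whole range within either group. The means were 9.15 ± 0.28 (SD, n = 5) and 6.51 ± 0.16 (SD, n = 3), and the change was 2.68 ± 0.10 (SE) on the log2 scale, 6.40-fold with a 95% interval of 5.33 to 7.67 (limma, adjusted p = 0.0003, and p = 0.0179 by the exact permutation test). Batches 1, 2 and 3 gave 2.78, 2.42 and 2.83. The dimmer Grn probe set (161546_r_at) read between 5.95 and 6.23 in EAE and between 5.84 and 5.94 in controls. Its groups did not overlap, but its change of 0.17 did not pass the test (limma, adjusted p = 0.314), so that the probe sets of Grn gave values far apart.

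Lamp1 and Lamp2 encode the major glycoproteins of the lysosomal limiting membrane, and Lamp2 also serves in chaperone-mediated autophagy and in the fusion of autophagosomes with lysosomes. The Lamp1 probe set read 10.83, 10.63, 10.66, 10.67 and 10.73 in EAE 1 to 5 and 10.63, 10.73 and 10.68 in controls 1 to 3. The control range lay within that of EAE, and EAE 1 was above every control. The change was 0.03 ± 0.08 (SE) on the log2 scale, 1.02-fold with a 95% interval of 0.879 to 1.19 (limma, adjusted p = 0.857).

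The brighter Lamp2 probe set (101590_at) read 9.07, 9.32, 9.49, 9.35 and 9.62 in EAE 1 to 5 and 8.16, 8.14 and 8.24 in controls 1 to 3. All 5 EAE arrays were above all 3 controls, and EAE 1 was the nearest to them. The change was 1.11 ± 0.09 (SE) on the log2 scale, 2.16-fold with a 95% interval of 1.84 to 2.52 (limma, adjusted p = 0.0024, and p = 0.0179 by the exact permutation test), with 0.91, 1.17 and 1.24 in batches 1, 2 and 3. The dimmer Lamp2 probe set (100136_at) read 7.95, 7.96, 8.71, 7.82 and 8.26 in EAE 1 to 5 and 7.53, 7.57 and 7.37 in controls 1 to 3. Its groups did not overlap either, and the change of 0.72 did not pass with batch as a block (limma, adjusted p = 0.0745) and passed without it (0.65, limma adjusted p = 0.0428). EAE 3 stood above the other EAE arrays, and batch 3 gave 1.34 against 0.42 and 0.39 in batches 1 and 2.

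Cd63 encodes a tetraspanin of late endosomes, lysosomes and exosomes. Its probe set read 10.37, 9.91, 10.16, 9.78 and 9.87 in EAE 1 to 5 and 9.47, 9.29 and 9.21 in controls 1 to 3. All 5 EAE arrays were above all 3 controls. The change was 0.82 ± 0.09 (SE) on the log2 scale, 1.77-fold with a 95% interval of 1.51 to 2.08 (limma, adjusted p = 0.0056, and p = 0.0179 by the exact permutation test), with 0.90, 0.62 and 0.95 in batches 1, 2 and 3. Without an array of batch 3 the change was 0.76 (limma, adjusted p = 0.0525).

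**Figure D2:**
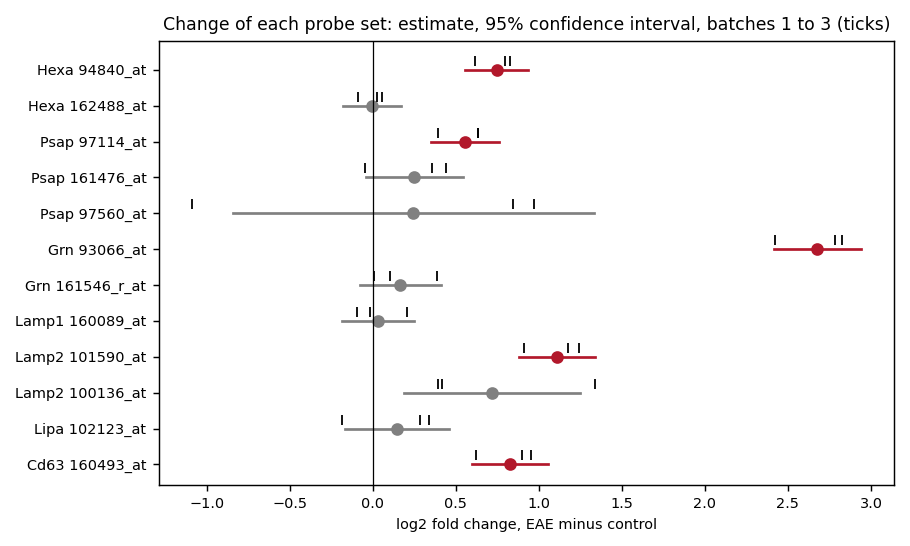
Change of each probe set between EAE and control on the log2 scale, with batch as a term, with its 95% interval, and the difference within each of batches 1 to 3. Grn stands at 2.68, while Lamp1 at 0.03 and Lipa at 0.15 have intervals that include 0.

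Changes were compared within 2 pairs of related genes, by the difference of their brightest probe sets on each array. Lamp2 minus Lamp1 averaged -1.34 on the EAE arrays (SD 0.26, n = 5) and -2.50 on the control arrays (SD 0.08, n = 3). Lamp2 thus rose 2.23-fold more than Lamp1 (exact permutation test, two-sided, p = 0.0179, and 0.0179 after adjustment over 2 pairs), and the difference of changes was 0.71, 1.27 and 1.26 on the log2 scale in batches 1, 2 and 3. Grn minus Psap averaged -1.78 on the EAE arrays (SD 0.34, n = 5) and -4.00 on the control arrays (SD 0.06, n = 3). Grn thus rose 4.67-fold more than Psap (exact permutation test, two-sided, p = 0.0179, adjusted 0.0179), with 2.39, 1.79 and 2.19 in batches 1, 2 and 3. With the mean of all probe sets of a gene, the differences of changes were 0.89 for Lamp2 over Lamp1 and 1.16 for Grn over Psap.

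The promoters of the genes were searched because many lysosomal genes carry the CLEAR element, bound by the transcription factor TFEB and searched as the E-box CACGTG with GT before and AC after it. RefSeq promoters (GRCm38.p6, 250 bases before to 50 after the start, both strands) were found for all 8 genes, 9 windows in all, with 2 for Psap. The CLEAR element in these exact letters was in 0 of 9 windows and in 0.326% of 32851 promoters. Forms that differ from it by a letter were not counted, so looser matches are not excluded. The E-box was in the window of Lamp1 alone, against 7.15% of all promoters. Lamp1 held 4 E-boxes, a number reached or passed by 8 promoters of 32851 (0.0244%). The GC box GGGCGG was in 5 of 9 windows, those of Hexa, Psap, Grn, Lamp2 and Lipa, against 35.7% of all promoters. GAGGAAGT, a PU.1 motif, and TTCNNNGAA, a GAS motif, were in 0 of 9, against 3.2% and 8.3%. The stretches of Lamp1 (chr8:13159089-13159160, + strand, E-boxes in capitals), Grn (chr11:102430449-102430478, + strand, GC box in capitals) and Lamp2 (chrX:38456521-38456550, - strand, GC box of the opposite strand in capitals) are shown, since Lamp1 and Lamp2 differed in response and Grn changed by the widest margin:
Lamp1: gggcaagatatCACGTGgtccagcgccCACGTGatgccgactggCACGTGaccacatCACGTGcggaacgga
Grn: ggaaattgaggtGGGCGGgccatcgtgcgg
Lamp2: ggcgtggccacgCCGCCCtcctgcccggac
The E-boxes of Lamp1 lay between 61 and 15 bases before the start. Of 753 genes with an E-box, 7.7% were higher in EAE and 14.3% were lower. Of 5823 genes without it, 9.24% were higher and 13.3% were lower. Whether E-boxes bear on the change of a gene was not tested. A match is a description of the letters and no evidence of binding.

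Other lysosomal genes were counted by the brightest probe set of each gene, for which 9.19% of all genes were higher, 13.5% were lower and the median change was -0.05 on the log2 scale. Of 24 measured genes in the list of lysosomal hydrolases and activators, 5 were higher, 2 were lower and 17 did not pass, with a median of -0.02. The list also held Npc2 and Hgsnat, which are neither hydrolases nor activators and are among the genes that passed. The mannosidase Man2b1 was higher by 1.85 on the log2 scale (limma, adjusted p = 0.0009), the glucuronidase Gusb by 1.77, the tartrate-resistant phosphatase Acp5 by 1.30 and the glucosaminidase Naglu by 0.94. Npc2, which carries cholesterol out of the lysosome, was higher by 0.67. Gm2a, the activator that presents GM2 ganglioside to β-hexosaminidase A, fell by 0.42 (limma, adjusted p = 0.0196), and Hgsnat, an acetyltransferase of heparan sulfate breakdown, by 0.28 (limma, adjusted p = 0.0425). Both had overlapping groups and neither passed without the batch block (adjusted p = 0.182 and 0.213) or without EAE 1 (adjusted p = 0.0571 and 0.0901), EAE 2 (adjusted p = 0.0520 and 0.177) or EAE 3 (adjusted p = 0.112 and 0.161). Acp5 did not pass without EAE 2 (adjusted p = 0.0523). Hexa and its activator Gm2a thus had changes of opposite sign.

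Of 14 measured lysosomal membrane proteins, 6 were higher, 2 were lower and 6 did not pass, with a median of 0.24. Cd68, a glycoprotein of macrophage endosomes and lysosomes, was higher by 2.71, Laptm5, a membrane protein of blood cells, by 2.10, and Slc11a1, a metal ion transporter of phagosomes, by 1.94. Cd1d1, which presents lipid antigens, was higher by 0.68. Npc1, the cholesterol transporter that takes over from Npc2, fell by 0.60 (limma, adjusted p = 0.0177) and Laptm4b by 0.39 (limma, adjusted p = 0.0469). Without EAE 3, Npc1 (adjusted p = 0.0674), Laptm4b (adjusted p = 0.158) and Cd1d1 (adjusted p = 0.201) did not pass, while Cd68, Laptm5 and Slc11a1 did. Laptm4b also did not pass without the batch block (adjusted p = 0.0945), without EAE 1 (adjusted p = 0.0789) or without EAE 2 (adjusted p = 0.0896), nor Cd1d1 without EAE 1 (adjusted p = 0.0942), nor Npc1 without EAE 2 (adjusted p = 0.0638). Several of these proteins are themselves made mainly by leukocytes.

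The proton pump, whose V-ATPase subunits acidify the lysosome, had 2 of 15 genes higher, 3 lower and 10 that did not pass, with a median of -0.30. Atp6v0e was higher by 0.80 and Tcirg1, an isoform of the membrane sector known from osteoclasts and immune cells, by 0.69. Atp6v1h fell by 0.35 and Atp6ap1 by 0.33. None of the 5 pump genes passed without EAE 2 or without EAE 3, or without control 2 or control 3, where 2 genes were higher and 3 to 7 lower at an unadjusted p under 0.05.

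Of 31 genes of lysosomal enzyme sorting, 2 were higher, 2 were lower and 27 did not pass, with a median of -0.10. Vamp8, a fusion protein of late endosomes, was higher by 0.95 and Sumf1, which activates sulfatases, by 0.51, while Vps41, a subunit of the tether of late endosomes to lysosomes, fell by 0.45 and the sorting receptor Sorl1 by 0.33. Without EAE 3, Vamp8 still passed, and Sumf1 (adjusted p = 0.209), Vps41 (adjusted p = 0.0797) and Sorl1 (adjusted p = 0.149) did not. Sumf1 (adjusted p = 0.104) and Sorl1 (adjusted p = 0.0617) also did not pass without EAE 1, nor Vps41 (adjusted p = 0.0543) and Sorl1 (adjusted p = 0.114) without EAE 2. The MiT/TFE transcription factors, which switch on lysosomal genes, gave 0 calls of 2 measured in limma, and 0 at an unadjusted p under 0.05. Tfeb changed by -0.12 (limma, adjusted p = 0.296) and Mitf by -0.04 (limma, adjusted p = 0.773). Both lay below the array medians, with control means of 5.36 and 5.56, where a change is hard to see.

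Among 14 measured tetraspanins, the family of Cd63, 3 were higher, 2 were lower and 9 did not pass, with a median of 0.10. The leukocyte tetraspanin Cd53 was higher by 2.57, Tspan4 by 1.10 and Tspan32 by 0.56, whereas Tspan6 fell by 0.70 and Tspan13 by 0.62. Without EAE 3, Cd53 and Tspan6 still passed, and Tspan4 (adjusted p = 0.0647), Tspan32 (adjusted p = 0.0612) and Tspan13 (adjusted p = 0.101) did not, nor did Tspan13 without EAE 2 (adjusted p = 0.0550). Among 10 measured partners of the listed proteins, 2 were higher and 3 were lower, with a median of -0.03. Timp1, the metalloproteinase inhibitor that binds Cd63 at the cell surface, was higher by 2.27 (limma, adjusted p = 0.0003), as was Npc2, while Npc1, Gm2a and Gpr37, named as a receptor of prosaposin, were lower. Gpr37 fell by 0.32 (limma, adjusted p = 0.0259, and 0.0770, 0.108 and 0.119 without EAE 1, EAE 2 and EAE 3). The related receptor Gpr37l1 changed by -0.33 (limma, adjusted p = 0.205), the endocytic receptor Lrp1 by 0.24, the hyaluronan receptor Cd44 by -0.07, the proteoglycan Sdc4 by 0.28 and the melanosome protein Pmel by 0.00, and none of these 5 passed the test. Gpr37, Cd44, Sdc4 and Pmel were dim, with control means of 5.05, 5.87, 5.62 and 5.68, below the array medians.

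**Figure D3:**
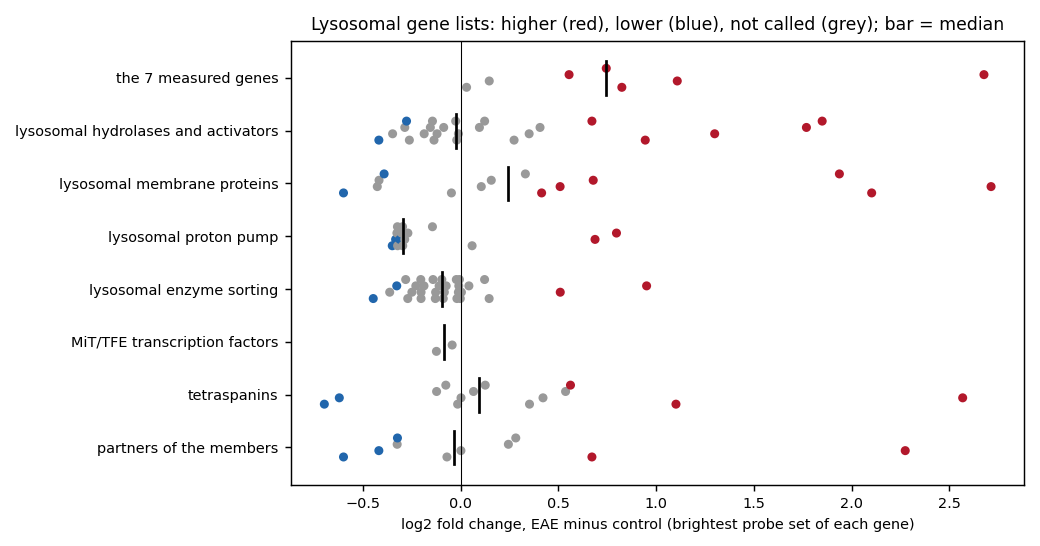
Change between EAE and control on the log2 scale for each measured gene (points) of 7 lists of lysosomal genes and partners, with the median of each list. The membrane proteins have a median of 0.24 and the proton pump one of -0.30, against -0.05 over all genes.

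The 5 called genes were taken because they were higher in EAE, so their height on the EAE arrays was set by the choice. Macrophage and microglia, neutrophil, T cell and endothelial markers each averaged higher on every EAE array than on every control array. In size, the neutrophil mean was nearer to the mean of the called genes on every EAE array than the macrophage mean was. Both of the means compared there mixed unlike changes. Among the neutrophil markers S100a8 rose by 4.54 and Csf3r changed by 0.03, with a median change of 0.35 over the 10. The called genes ran from 0.55 for Psap to 2.68 for Grn. The nearness of the means was not tested and does not tell which cells the RNA came from. The 7 B cell and plasma cell markers averaged -0.03 to 0.04 relative to controls in EAE and -0.08 to 0.14 in controls. Relative to the mean of the controls, the 5 called genes averaged 1.16, 1.00, 1.39, 0.97 and 1.11 on the log2 scale in EAE 1 to 5, and 0.00, -0.10 and 0.10 in controls 1 to 3. The 18 macrophage and microglia markers averaged 1.97, 1.87, 2.30, 1.94 and 1.93 in EAE 1 to 5, and -0.04, -0.03 and 0.07 in controls. EAE 3 was highest by both measures. Among the brightest macrophage markers, the pore-forming protein gene Mpeg1 rose from 7.37 ± 0.07 (SD, n = 3) to 10.77 ± 0.25 (SD, n = 5) and the lipopolysaccharide receptor Cd14 from 7.85 ± 0.01 (SD, n = 3) to 10.33 ± 0.30 (SD, n = 5). The part of these cells in the changes of the listed genes was not tested. In whole spinal cord, more cells of a type and more RNA per cell cannot be told apart.

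**Figure D4:**
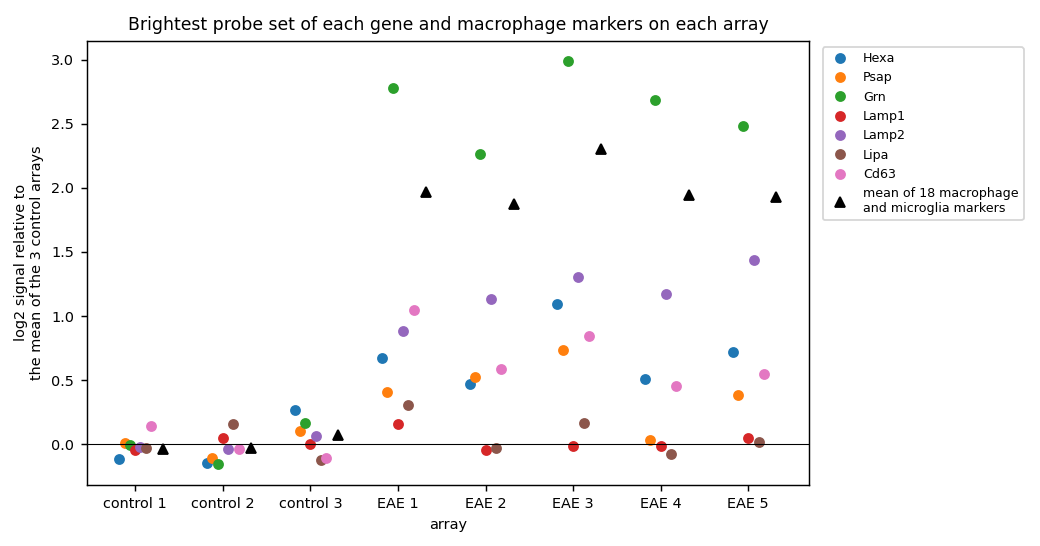
Log2 signal on each array relative to the control mean, for the brightest probe set of each of the 7 genes (points). Triangles give the mean of 18 macrophage and microglia markers. On the EAE arrays the genes run from -0.08 (Lipa, EAE 4) to 2.99 (Grn, EAE 3). The marker mean runs from 1.87 to 2.30 there and is highest in EAE 3.

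The genes whose profiles lay nearest to each listed gene were found by the root mean square difference of log2 values relative to controls over the 8 arrays. Grn was nearest to the lysosomal protease Ctss (0.205), the leukocyte integrin chain Itgb2 (0.224) and the myeloid receptor adaptor Tyrobp (0.228). Lamp2 was nearest to Bst1 (0.0761), the cytokine signalling inhibitor Socs1 (0.107) and the leukocyte actin-binding protein Coro1a (0.108). Hexa was nearest to the interferon-γ receptor chain Ifngr1 (0.108), the lysosomal protease Ctsb (0.118) and the cyclophilin Ppib (0.120), and Psap to Tnfaip3 (0.0984), Klk8 (0.108) and Jpt1 (0.111). Cd63 was nearest to Ube2l6 (0.119), Gdap10 (0.133) and Tmem268 (0.136). Lamp1 was nearest to Rai1 (0.0261), Tnnt3 (0.0308) and Fabp1 (0.0334), and Lipa to Ubxn8 (0.0624), Hsd17b7 (0.0691) and Iqgap2 (0.0727). None of these neighbours of Lamp1 and Lipa passed the test, so what they share with them is a profile without a called change. The measure picks genes of like change, so that the size of their change is set by the choice.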

How the data were processed

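Spinal cord RNA of 5 EAE and 3 control pools was measured on MG U74Av2 arrays. The authors deposited log2 signals made in Partek (version not given in the sources used here) by RMA with GC adjustment and quantile normalization, which forces a common distribution on the arrays. The file held 12488 probe sets. After 66 control probe sets were left out, 12422 were tested, of which 10833 had 1 gene symbol, 396 several and 1193 none, by the platform annotation (10817 were matched to RefSeq by Entrez identifier). Detection calls and scanner background were not used here.

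Groups were compared in limma 3.58.1 (R 4.3.3) (lmFit, then eBayes) in a model of treatment plus batch, which leaves 2 residual degrees of freedom before moderation, and p-values were adjusted over all probe sets by the Benjamini-Hochberg method with a threshold of 0.05. Exact two-sided permutation tests used all 56 regroupings of the arrays. Replicates were separate pools of animals. The labels make the replicate number the batch, and deviations from group means of arrays of the same batch correlated at 0.302, -0.231 and 0.412 in batches 1, 2 and 3. The brightest probe set by mean stood for a gene of a list. The genes named were every probe set of the listed genes, up to 4 higher and 2 lower genes of each list with the widest changes among those that passed, all measured partners and MiT/TFE factors, the 3 nearest profiles and up to 2 of the brightest markers of a cell type. The listed genes and the gene lists were chosen with earlier results of these data known. The fit was tested on simulated data. The number of arrays limits the precision. Alternatives changed the block, moderation, normalization, filter, threshold and arrays used.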

Additional observations from a re-analysis of the deposited data

Results flagged for a closer look

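In 65 sets of 5 EAE values, 5 had an array far from the others by Dixon's test, and chance gives about 1 in 20. None of them was a probe set of the 7 listed genes. The phosphatase gene Acp5 read 7.32 in EAE 3 and between 6.25 and 6.46 in the other EAE arrays. Tfeb read 5.43 in EAE 3 and between 5.10 and 5.19 in the others. The mean of the lysosomal membrane protein list was 8.53 in EAE 3 and between 8.24 and 8.32 in the others, and that of the macrophage and microglia markers was 8.35 in EAE 3 and between 7.92 and 8.01 in the others. The mean of the skeletal muscle markers was 4.93 in EAE 1 and between 4.62 and 4.69 in the others.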

How the results depend on the processing

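Over the alternative fits the change of the brighter Grn probe set lay between 2.60 and 2.81 on the log2 scale, that of the brighter Lamp2 probe set between 1.04 and 1.21 and that of the brighter Hexa probe set between 0.69 and 0.81, and these lost their calls without moderation of the variances alone. Cd63 (0.70 to 0.93) was also lost without an array of batch 3, and the brightest Psap probe set (0.42 to 0.64) without an array of batch 2 or 3 and without the replicate block. These fits are not all separate: with batch as a term, leaving out EAE 4 or EAE 5 leaves every change as it was, and leaving out either array of batch 1, 2 or 3 gives the same change. No called change turned sign. Among probe sets that did not pass, Lamp1 ran from -0.06 to 0.09, the third Psap probe set from -0.12 to 0.91 and the dimmer Hexa probe set from -0.04 to 0.04, and Lipa from 0.05 to 0.31. Without the replicate block 5 probe sets of the listed genes passed, as with it, Psap being replaced by the dimmer Lamp2 probe set. Leaving out EAE 1 and EAE 4, a choice made after seeing the data, equals leaving out EAE 1 in this model and gave 6. In the counts that follow, hydrolases stands for their whole list, which also held Npc2 and Hgsnat. Leaving out 1 array gave 3 to 6 probe sets of the listed genes, 746 to 2438 of all probe sets, 5 to 7 hydrolases, 3 to 8 membrane proteins, 0 to 5 pump genes, 1 to 4 sorting genes, 2 to 5 tetraspanins and 2 to 5 partners. Without moderation of the variances, 0 probe sets of the listed genes and 1 of all probe sets passed, and 0 genes of each list, although 5 probe sets of the listed genes were higher in limma at an unadjusted p under 0.05. That setting leaves 2 degrees of freedom. At an adjusted p under 0.01, 830 probe sets passed in all, with 3 hydrolases, 3 membrane proteins, 0 pump genes, 1 sorting gene and 2 partners. With a change of at least 2-fold also asked for, 463 passed in all, with 2 probe sets of the listed genes (Grn and Lamp2), 3 hydrolases, 3 membrane proteins, 0 pump genes, 0 sorting genes, 2 tetraspanins and 1 partner. An intensity trend or further quantile normalization gave 2 pump genes, and brighter probe sets alone gave 2 sorting genes. With the replicate block taken as the sign within batches, 7 probe sets of the listed genes were higher in EAE in each of batches 1 to 3. Of these, the dimmer Grn probe set was higher by only 0.0063 in batch 2. The exact permutation test over all arrays passed 4 (4 to 6 when 1 array was left out). The share of all probe sets was not counted for either rule, so these counts have no background. The cause was not tested for these settings.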
